A study of Saccharomyces cerevisiae with 3 samples.

Results

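Sphingolipids are lipids of the plasma membrane that are built on a sphingoid base in place of glycerol. Budding yeast makes the base from serine and an acyl-CoA in the endoplasmic reticulum, joins it to a very-long-chain fatty acid to give ceramide, and adds inositol phosphate and mannose head groups in the Golgi. Free sphingoid bases are toxic in excess and are exported, phosphorylated or broken down. The 10 genes described here cover this route from the first enzyme to the last head group, with the exporter of sphingoid bases: LCB1, LCB2, TSC10, SUR2, LAG1, LAC1, AUR1, CSG2, IPT1 and RSB1. They were chosen by pathway, with their log2 levels on these arrays and the differences between the arrays already known, and all 10 were found by locus tag among the 5777 genes of the array.

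The yeast Saccharomyces cerevisiae, strain DS10 and named wild type in the labels, carried 1 of 3 plasmids, each a freshly transformed pRS415 with the strong GPD promoter. The first plasmid expressed the Hsp70-type protein Ssz1 with the substitution S295F, the second residues 365 to 433 of the J-protein Zuo1 with the substitution S427G (called the Zuo1 fragment below), and the third TAP, called vector, whose product the labels do not describe. Cells of all 3 groups grew to log phase without leucine, and RNA of 3 cultures was pooled per group and put on 1 single-colour Cy3 NimbleGen array. Ssz1 and Zuo1 form the ribosome-associated complex and are known as activators of Pdr1, the transcription factor of pleiotropic drug resistance. RSB1 and IPT1 are known targets of Pdr1 and its relative Pdr3.

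Each array gave 3 intensity values per gene, from 3 blocks. A level below is the intensity on a linear scale, as the geometric mean of the blocks unless block readings are given, and a log2 ratio is the difference of log2 levels between 2 arrays, with the SD over 3 blocks as its error. This error is technical and covers nothing between cultures. With 1 array of pooled RNA per group no p-value can be given, and genes at least 2-fold apart between arrays are counted by size alone, as past 2-fold. The median intensity was 2697 in Ssz1 S295F cells, 2722 in Zuo1 fragment cells and 2802 in vector cells. SSZ1 itself read 19318 in Ssz1 S295F cells, 12001 in Zuo1 fragment cells and 10279.5 in vector cells, log2 ratios of 0.91 ± 0.07 and 0.22 ± 0.05. ZUO1 (0.04 and -0.04) does not check the fragment, since the places of its probes were not used here, and TDH3 (-0.04 and 0.01), whose promoter is the GPD promoter, and the plasmid marker LEU2 (-0.22 and -0.12) lay near the middle gene or vector. The median log2 ratio to vector of all genes was -0.15 in Ssz1 S295F cells and -0.12 in Zuo1 fragment cells, and ratios relative to the middle gene are higher by these amounts than those printed. Coordinates are those of the array files, on chromosome sequences of 2008, and span the coding sequence. Pairs of genes set against each other below were chosen after their values were seen.

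RSB1 was the only 1 of the 10 genes past 2-fold, with both constructs, and it was higher. IPT1 followed at about 1.6-fold in Ssz1 S295F cells and 1.5-fold in Zuo1 fragment cells. The other 8 genes stayed within 0.5 of vector in log2 ratio with each construct, on both sides of 0. In Ssz1 S295F cells 1 of 10 genes was higher past 2-fold, where 5.02% of all genes were, and 0 of 10 were lower, where 2.77% of all genes were. In Zuo1 fragment cells 1 of 10 was higher, beside 3.64% of all genes, and 0 of 10 were lower, beside 0.866%. At 1.5-fold, RSB1 and IPT1 were the 2 higher genes with each construct, beside 10.2% of all genes in Ssz1 S295F cells and 7.60% in Zuo1 fragment cells, and 0 of 10 were lower, beside 13.1% and 7.17%. The genes were picked with these contrasts known, so nothing is read from these shares. The split of all genes past 2-fold depended on the scaling. As deposited, 290 were higher and 160 lower in Ssz1 S295F cells, against 394 and 90 after centring on the median, 357 and 82 after quantile normalization, 444 and 39 after a loess on mean level and 296 and 53 after a loess on coding length. For the Zuo1 fragment 210 were higher and 50 lower as deposited, 297 and 15 after the loess on mean level and 223 and 19 after that on coding length.

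**Figure D1:**
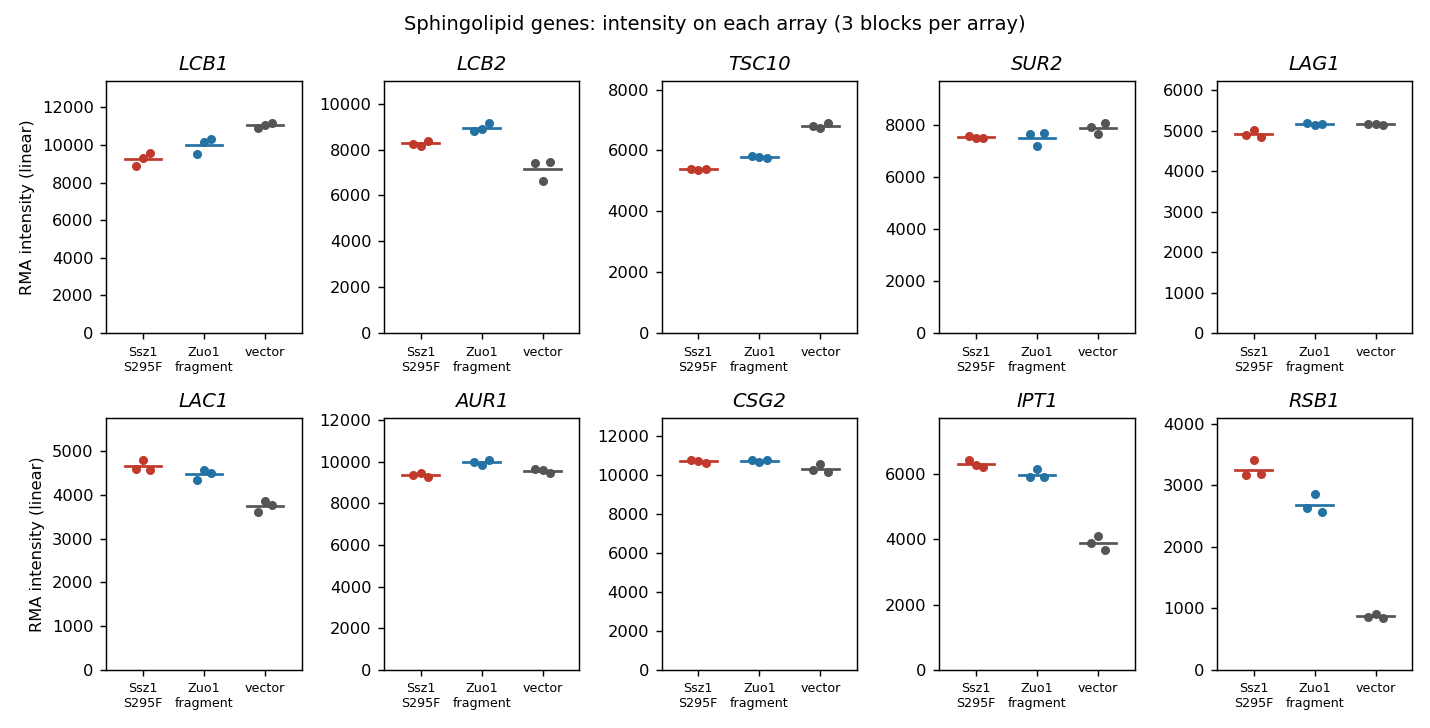
Intensity (linear scale, from 0) of each of the 10 genes on the Ssz1 S295F, Zuo1 fragment and vector arrays; points are the 3 blocks of an array and lines their geometric mean. RSB1 stood at 3249, 2683 and 868, IPT1 at 6320.4, 5988 and 3887, and the lines of the other panels lie closer together.

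RSB1 (YOR049C, chromosome XV, 422669 to 423733) encodes a membrane protein of the plasma membrane that moves sphingoid bases out of the cell. Its blocks read 3159, 3413 and 3182 in Ssz1 S295F cells, 2633, 2857 and 2569 in Zuo1 fragment cells and 857, 901 and 847 in vector cells. The vector readings lay below every reading of both construct arrays, and the Zuo1 fragment readings below those of Ssz1 S295F. The log2 ratio to vector was 1.90 ± 0.02 in Ssz1 S295F cells (3.74-fold) and 1.63 ± 0.03 in Zuo1 fragment cells (3.09-fold). Ordered from the highest ratio, RSB1 was gene 82 of 5777 in the first comparison and gene 86 in the second. Its level on the vector array was at the 16.1st percentile of that array, the lowest percentile of any of the 10 genes on any of the 3 arrays, and no reading of the 10 genes lay in the lowest 5% of genes.

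IPT1 (YDR072C, chromosome IV, 589759 to 591342) encodes the enzyme that adds the last inositol phosphate of the most complex yeast sphingolipid. Its blocks read 6447, 6278 and 6239 in Ssz1 S295F cells, 5907, 6149 and 5912 in Zuo1 fragment cells and 3892, 4112 and 3671 in vector cells. The vector readings were again the lowest, with no overlap. The log2 ratio was 0.70 ± 0.08 in Ssz1 S295F cells (1.63-fold) and 0.62 ± 0.06 in Zuo1 fragment cells (1.54-fold), and both fell short of 2-fold. IPT1 was gene 476 from the highest ratio in Ssz1 S295F cells and gene 406 in Zuo1 fragment cells.

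**Figure D2:**
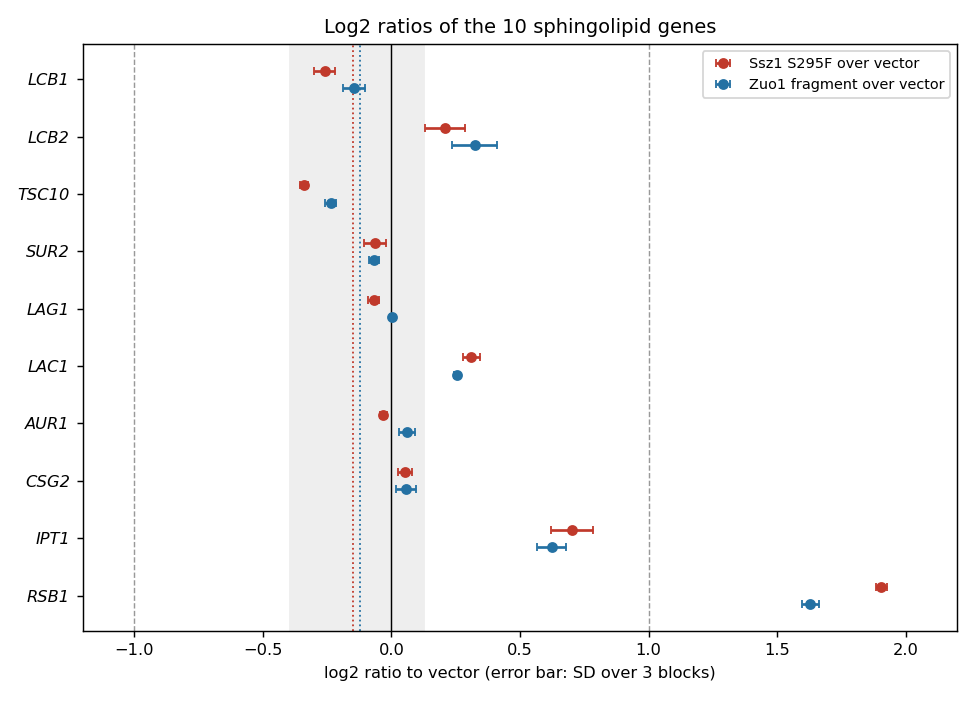
Log2 ratio to vector of the 10 genes in pathway order, with Ssz1 S295F above the Zuo1 fragment for each gene and error bars of 1 SD over 3 blocks. Dotted lines mark the median of all genes (-0.15 and -0.12), the grey band runs from the lower to the higher of their quartiles (-0.39 to 0.13), and dashed lines mark 2-fold. RSB1 lies past 2-fold, IPT1 between the band and 2-fold, and LCB2 and LAC1 just above the band.

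The first step of the route is serine palmitoyltransferase, whose catalytic core is made of Lcb1 and Lcb2. LCB1 (YMR296C, chromosome XIII, 859214 to 860890) read 9238 in Ssz1 S295F cells, 9999 in Zuo1 fragment cells and 11059 in vector cells, log2 ratios of -0.26 ± 0.04 and -0.15 ± 0.04. LCB2 (YDR062W, chromosome IV, 576471 to 578156) read 8272 in Ssz1 S295F cells, 8961 in Zuo1 fragment cells and 7159 in vector cells, log2 ratios of 0.21 ± 0.08 and 0.32 ± 0.09. The 2 subunit genes thus lay on opposite sides of vector on both construct arrays, without overlap of blocks in either. Block by block, the ratio of LCB2 exceeded that of LCB1 by 0.47 ± 0.08 in Ssz1 S295F cells and by 0.47 ± 0.07 in Zuo1 fragment cells. Relative to the median of all genes, LCB1 was at -0.11 in Ssz1 S295F cells and -0.02 in Zuo1 fragment cells.

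TSC10 and SUR2 act on the base itself. TSC10 (YBR265W, chromosome II, 738577 to 739539), the reductase of the first product, read 5381 in Ssz1 S295F cells, 5783 in Zuo1 fragment cells and 6810.4 in vector cells. These readings did not overlap between arrays, and the log2 ratios were -0.34 ± 0.015 and -0.24 ± 0.02, the lowest of the 10 genes in each comparison. SUR2 (YDR297W, chromosome IV, 1056547 to 1057596), the hydroxylase that makes phytosphingosine, read 7548 in Ssz1 S295F cells, 7525 in Zuo1 fragment cells and 7885 in vector cells. Its log2 ratios were -0.06 ± 0.04 and -0.07 ± 0.02, and its Zuo1 fragment and vector blocks overlapped. The sign of SUR2 turned in each comparison with vector when ratios were centred on the median (0.09 and 0.06).

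Ceramide synthase has either of the paralogous catalytic subunits Lag1 and Lac1. LAC1 (YKL008C, chromosome XI, 426938 to 428194) read 4649 in Ssz1 S295F cells, 4468 in Zuo1 fragment cells and 3748 in vector cells, log2 ratios of 0.31 ± 0.03 and 0.25 ± 0.01. LAG1 (YHL003C, chromosome VIII, 100644 to 101879) read 4915 in Ssz1 S295F cells, 5161 in Zuo1 fragment cells and 5152 in vector cells, log2 ratios of -0.07 ± 0.02 and 0.00 ± 0.01. All LAC1 blocks of both construct arrays lay above those of vector, while LAG1 was below vector in Ssz1 S295F cells and overlapped it in Zuo1 fragment cells. LAC1 exceeded LAG1 in log2 ratio by 0.38 ± 0.04 and 0.25 ± 0.004. Probe sequences were not used here, so how far probes of one paralog read the other was not tested. With centring LAG1 changed sign in Ssz1 S295F cells, to 0.08, and rose to 0.13 in Zuo1 fragment cells. Both stayed under LAC1 at 0.46 and 0.38.

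Head groups are added by Aur1, which makes inositol phosphorylceramide and is the target of aureobasidin A, by the mannosyltransferases of which Csg2 is a regulatory subunit, and by Ipt1. AUR1 (YKL004W, chromosome XI, 435223 to 436428) read 9351 in Ssz1 S295F cells, 9969 in Zuo1 fragment cells and 9556 in vector cells, log2 ratios of -0.03 ± 0.01 and 0.06 ± 0.03. CSG2 (YBR036C, chromosome II, 309081 to 310313, the only one of the 10 genes with 7 probes rather than 8) read 10694 in Ssz1 S295F cells, 10711 in Zuo1 fragment cells and 10298 in vector cells, log2 ratios of 0.05 ± 0.03 and 0.06 ± 0.04. AUR1 and CSG2 were within 0.1 of vector in each comparison, and only the AUR1 blocks of the Ssz1 S295F array overlapped those of vector. With centring AUR1 turned to 0.12 in Ssz1 S295F cells. IPT1, the last step, exceeded CSG2 by 0.65 ± 0.06 in log2 ratio in Ssz1 S295F cells and by 0.57 ± 0.03 in Zuo1 fragment cells.

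Counted over the 10 genes, every block of the Ssz1 S295F array was above every block of vector in 5 genes (LCB2, LAC1, CSG2, IPT1 and RSB1), beside 27.0% of all genes, and below in 4 (LCB1, TSC10, SUR2 and LAG1), beside 56.4%. In Zuo1 fragment cells 6 genes were above without overlap (AUR1 joined the same 5), beside 24.4% of all genes, and 2 were below (LCB1 and TSC10), beside 54.8%. Most genes of the array thus separated by blocks, whose median SD of the ratio was 0.04. The median log2 ratio of the 10 genes was 0.01 in Ssz1 S295F cells and 0.06 in Zuo1 fragment cells, and -0.03 and 0.06 without RSB1, beside -0.15 and -0.12 for all genes.

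The constructs were also set against each other. Between the Zuo1 fragment and Ssz1 S295F 0 of 10 genes passed 2-fold in either direction, beside 0.138% of all genes higher and 0.138% lower. Over all genes these were 8 higher and 8 lower, against 7 and 14 after centring, 6 and 21 after the loess on mean level and 6 and 14 after that on coding length. RSB1 had the largest difference of the 10, -0.28 ± 0.03, so it was lower in Zuo1 fragment cells, and IPT1 was at -0.08 ± 0.05. LCB1 (0.11 ± 0.01), LCB2 (0.12 ± 0.02), TSC10 (0.10 ± 0.01), AUR1 (0.09 ± 0.03) and LAG1 (0.07 ± 0.03) were slightly above Ssz1 S295F, and LAC1 was at -0.06 ± 0.03. SUR2 and CSG2 were at 0.00 ± 0.05 and 0.00 ± 0.02. Without overlap of blocks, 4 genes were higher in Zuo1 fragment cells (LCB2, TSC10, LAG1 and AUR1), beside 33.3% of all genes, and 2 lower (IPT1 and RSB1), beside 21.9%. Both comparisons with vector share the 1 vector array, so a deviation of that array would enter both alike and cannot be told apart from an effect common to the constructs.

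Ratios to vector went with coding length over the whole array, and the 10 genes span 963 to 1686 bp. In that span 1843 genes stood at a median of -0.10 in Ssz1 S295F cells and -0.09 in Zuo1 fragment cells, and 3.58% and 2.44% of them were higher past 2-fold. RSB1 has 1065 bp, and of the 1153 genes of 1029 to 1461 bp 27 were higher past 2-fold in Ssz1 S295F cells and 16 in Zuo1 fragment cells. After a loess on coding length was subtracted, RSB1 stood at 2.13 and 1.82, and IPT1, at 1584 bp, at 0.65 and 0.60. TSC10, at 963 bp the shortest of the 10, then lay at -0.06 and -0.003, while LCB1 was at -0.33 and -0.19, LCB2 at 0.14 and 0.28, and LAC1 at 0.41 and 0.35. SUR2 changed side, to 0.17 and 0.13. What lies behind the trend with length was not tested.

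**Figure D3:**
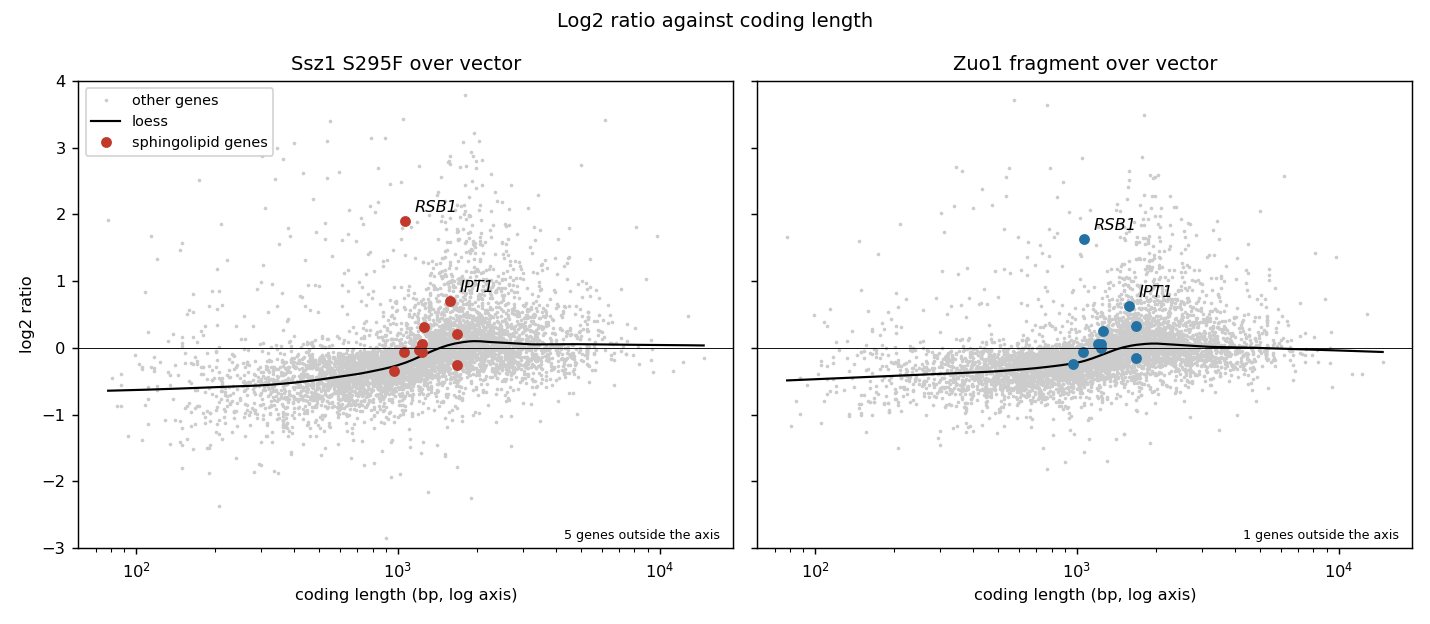
Log2 ratio to vector against coding length (log axis) for all genes (grey), with the loess curve (black) and the 10 sphingolipid genes in colour, for Ssz1 S295F (left) and the Zuo1 fragment (right). RSB1 lies far above the curve at its length and IPT1 above it, and the other 8 genes lie within about 0.5 of it.

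Other genes of the pathway, from lists written with earlier results of these data known, were measured on the same arrays. Of 5 further synthesis genes found on the array 0 passed 2-fold in either direction with each construct. SUR1, a catalytic subunit of mannosyltransfer that works with Csg2, was the highest, at 5599.5 in Ssz1 S295F cells, 4970.3 in Zuo1 fragment cells and 3177 in vector cells (0.82 ± 0.045 and 0.65 ± 0.17). Its paralog CSH1 was at -0.25 ± 0.03 and -0.16 ± 0.01, so the paralogs differed by 1.07 ± 0.05 and 0.80 ± 0.17. CSH1 turned to 0.01 and 0.07 after the loess on mean level, and in Zuo1 fragment cells to 0.01 after that on coding length. LIP1, a regulatory subunit of ceramide synthase, was at -0.54 ± 0.03 and -0.34 ± 0.03, and KEI1, the partner of Aur1, at -0.52 ± 0.01 and -0.38 ± 0.025. LIP1 and KEI1 are short, and after the loess on coding length they were at -0.05 and 0.02 and at -0.16 and -0.10.

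Of 6 genes of fatty acid elongation, which supplies the long acyl chain of ceramide, 0 passed 2-fold. The dehydratase gene PHS1 was at -0.60 ± 0.03 in Ssz1 S295F cells and -0.32 ± 0.02 in Zuo1 fragment cells, IFA38 at -0.25 ± 0.04 and -0.18 ± 0.02, ELO1 at 0.24 ± 0.02 and 0.18 ± 0.03, and TSC13 at -0.20 ± 0.03 and -0.10 ± 0.03. Of 9 genes of breakdown and of sphingoid base phosphates, likewise 0 passed 2-fold. The highest were YPC1, a ceramidase (0.62 ± 0.02 and 0.37 ± 0.02), and LCB4, the main sphingoid base kinase (0.60 ± 0.07 and 0.40 ± 0.02). The lowest was YSR3, a phosphatase of the base phosphates (-0.48 ± 0.06 and -0.45 ± 0.04). The paralogs of YPC1 and LCB4 were lower than they were: LCB5 was at 0.21 ± 0.03 and 0.13 ± 0.03, and YDC1, named after its values were seen, at -0.21 ± 0.045 and -0.10 ± 0.02. TSC13 and YDC1 turned to the higher side after the loess on coding length (0.09 and 0.14, then 0.07 and 0.13), and IFA38 did so in Zuo1 fragment cells (0.03). After the same loess PHS1, at 654 bp, was at -0.19 and -0.009, and ELO1 at 0.53 and 0.43. DPL1, the lyase that removes the base phosphates and also named after its values were seen, was at 0.03 ± 0.07 and -0.02 ± 0.04. Median log2 ratios were -0.25 and -0.16 for the further synthesis genes, -0.14 and -0.08 for elongation and -0.11 and -0.10 for breakdown. Those of the further synthesis genes lay below the medians of all genes (-0.15 and -0.12), and the others slightly above. After the loess on coding length the medians were, in the same order, -0.05 and 0.02, 0.12 and 0.14, and -0.003 and -0.006. All genes then stood at 0.02 and 0.015.

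**Figure D4:**
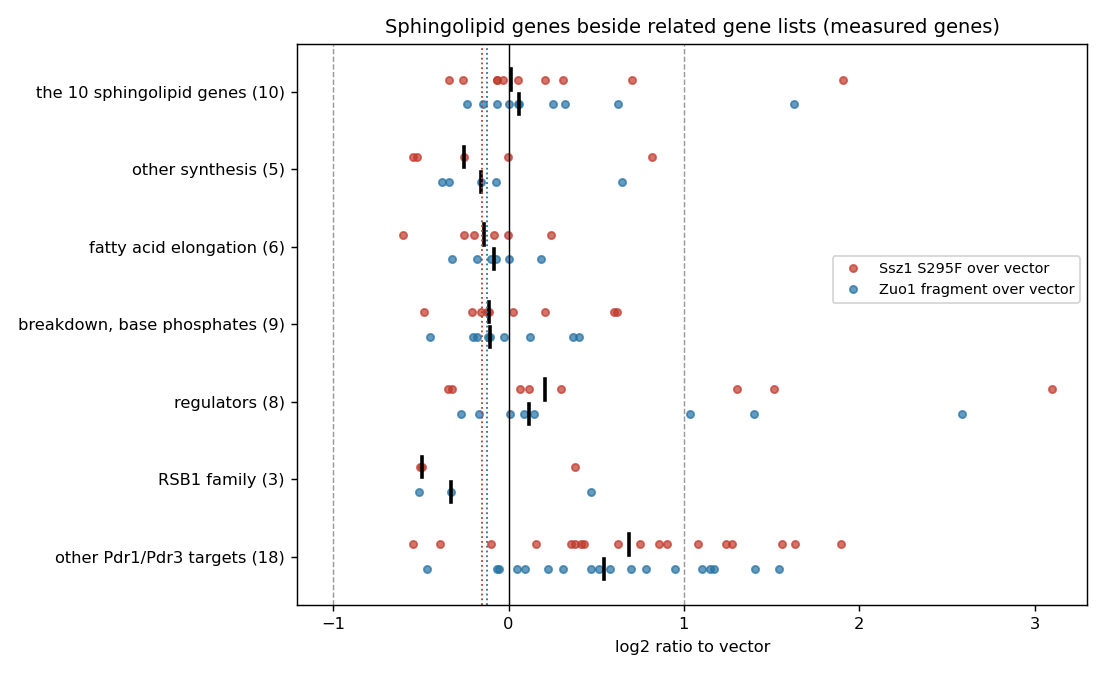
Log2 ratio to vector of each measured gene in the 10 sphingolipid genes and 6 related lists, with Ssz1 S295F above the Zuo1 fragment in each row; black bars are list medians, dotted lines the medians of all genes and dashed lines 2-fold. Genes past 2-fold appear among the 10 genes (RSB1), the regulators (3) and the other Pdr1 and Pdr3 targets (6 in Ssz1 S295F cells and 5 in Zuo1 fragment cells).

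Among 8 regulators of the pathway 3 were higher past 2-fold with each construct and 0 lower, beside 5.02% and 3.64% of all genes higher. They were YPK2, a kinase downstream of TORC2 (3.10 ± 0.04 and 2.59 ± 0.03), and SLM2 and SLM1, which bring the Ypk kinases to TORC2 (1.51 ± 0.26 and 1.40 ± 0.225 for SLM2, 1.30 ± 0.05 and 1.03 ± 0.04 for SLM1). These 3 genes have 1971 to 2061 bp. Of the 1151 genes of 1464 to 2115 bp, 10.8% were higher past 2-fold in Ssz1 S295F cells and 8.08% in Zuo1 fragment cells, more than among all genes. In vector cells YPK2 read 693 and SLM2 853, both below RSB1 at 868. The median of the 8 regulators was 0.21 in Ssz1 S295F cells and 0.12 in Zuo1 fragment cells. The blocks of SLM2 differed more than those of the other named genes. SLM1 came to just under 2-fold in Zuo1 fragment cells after the loess on coding length (0.97) and with 64 added to each intensity (0.999). YPK2 read 5922 in Ssz1 S295F cells, 4162 in Zuo1 fragment cells and 693 in vector cells, while its paralog YPK1 was at 0.07 ± 0.08 and 0.09 ± 0.08. ORM1 and ORM2, inhibitors of serine palmitoyltransferase that the Ypk kinases act on, were at -0.34 ± 0.07 and -0.32 ± 0.02 in Ssz1 S295F cells and at -0.27 ± 0.08 and -0.17 ± 0.03 in Zuo1 fragment cells. YPK1, ORM1 and ORM2 were named after their values were seen, and both ORM genes turned to the higher side (0.06 and 0.09, then 0.04 and 0.15) after the loess on coding length.

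RSB1 belongs to a family of lipid-translocating proteins with RTA1, PUG1 and YLR046C, and 0 of these 3 relatives passed 2-fold. RTA1 was at 0.38 ± 0.08 in Ssz1 S295F cells and 0.47 ± 0.03 in Zuo1 fragment cells, PUG1 at -0.49 ± 0.02 and -0.51 ± 0.05, and YLR046C at -0.50 ± 0.02 and -0.33 ± 0.02, with medians of -0.49 and -0.33. RSB1 exceeded the nearest of them, RTA1, by 1.52 ± 0.07 and 1.16 ± 0.01 in log2 ratio. Of 18 other targets of Pdr1 and Pdr3 (RTA1 among them), 6 were higher past 2-fold in Ssz1 S295F cells and 5 in Zuo1 fragment cells, beside 5.02% and 3.64% of all genes, and 0 were lower. These were ICT1 (1.89 ± 0.03 and 1.54 ± 0.12), GRE2 (1.63 ± 0.07 and 1.41 ± 0.06), YGR035C (1.56 ± 0.02 and 1.10 ± 0.03), YOR1 (1.28 ± 0.04 and 1.17 ± 0.04), CIS1 (1.24 ± 0.01 and 1.15 ± 0.07) and, in Ssz1 S295F cells only, TPO1 (1.08 ± 0.005, and 0.95 ± 0.08 in Zuo1 fragment cells). TPO1 crossed the 2-fold line in both comparisons, at 0.99 in Ssz1 S295F cells after the loess on coding length and at 1.07 in Zuo1 fragment cells after centring. After centring 8 of the 18 were higher past 2-fold in Ssz1 S295F cells, where the count over all genes rose from 290 to 394. LAF1 was then at 1.05 and PDR5 at 1.01, both named after their values were seen. LAF1 was also past 2-fold (1.01) after the loess on mean level. RSB1 and ICT1 could not be ordered in Ssz1 S295F cells: their ratios differed by 0.01, and ICT1 was the higher in block 1, in block 2 and with 64 added. In Zuo1 fragment cells RSB1 exceeded ICT1 by 0.087, though not in block 3. IPT1 lay near the median of the 18 targets, 0.69 and 0.55. Of the 18, 15 lay at or above 0 and 3 below it with each construct. Of all 5777 genes, 1975 lay at or above 0 in Ssz1 S295F cells and 1879 in Zuo1 fragment cells. The lowest was YLL056C in Ssz1 S295F cells (-0.54 ± 0.02) and PDR10 in Zuo1 fragment cells (-0.46 ± 0.05), both named after their values were seen. As deposited, PDR5 was short of 2-fold, at 0.86 ± 0.035 and 0.78 ± 0.036. This list holds genes known to answer Pdr1, and the drug response on these arrays was known when it was written.

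Genes with the most similar pattern were taken as those at the smallest distance from a gene in its pair of log2 ratios to vector. This was done over the 3 arrays and among 4509 genes that were not dim. A gene was dim if its brighter reading of a comparison was below the 25th percentile, so genes low on the vector array could pass. For RSB1 the most similar were the kinase gene SKS1 (1.88 and 1.65), YOR302W (1.91 and 1.66), which encodes the short peptide upstream of CPA1, the transcription factor gene RTG3 (1.91 and 1.67), TAX4 (1.94 and 1.56) and ICT1, at distances of 0.03 to 0.09. In vector cells SKS1 read 469, below RSB1 at 868, and TAX4 read 912. Within 0.1 of RSB1 lay 8 genes, and 44 lay within 0.1 of IPT1. Fewer genes lie toward the highest ratios, where RSB1 was gene 82 and 86 and IPT1 gene 476 and 406. The closest to IPT1 were SWI3, a subunit of the SWI/SNF complex (0.69 and 0.62), HPC2 (0.68 and 0.59), SWI6 (0.67 and 0.61), FAA1, an acyl-CoA synthetase (0.74 and 0.63), and CAF130 (0.71 and 0.58). Distances over 3 arrays that share the vector array describe these readings alone.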

How the data were processed

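RNA was measured on 3 one-colour NimbleGen arrays, 1 per plasmid. The deposited values are intensity values on a linear scale after RMA, per the submitters' processing notes, with 3 blocks per gene and array, per the file headers. Its version was not given in the sources used here. Another column gives the number of probes behind a gene, up to 8, per the file headers. The series-wide table holds the mean over blocks for 5769 of 5777 genes (largest relative difference 3.33e-10) and served as an alternative.

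Intensities were put on the log2 scale per block and averaged, with no floor. Genes were named through a RefSeq table by locus tag (5771 matched). Coordinates are those of the array files, annotated in 2008, and coding length is their span. No gene in the lists overlapped another gene of the array. The members and lists were chosen with earlier results of these data known. Of the listed genes, 1 (TSC3) was not analysed here.

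The genes named are all 10 members, listed genes past 2-fold with a construct (for lists without any, up to 4 with the largest ratio), SSZ1, ZUO1, TDH3, LEU2 and PDR1 as checks of the arrays, and the 5 genes of most similar pattern to RSB1 and to IPT1, with the brighter reading of each comparison at or above the 25th percentile. The loess (fraction 0.3) was run with statsmodels 0.14.6, and code was tested on simulated data. Alternatives were the series-wide table, centring, quantile normalization, a loess on level or on coding length, single blocks, 64 units added before log2, and other size rules. The precision is limited by 1 array per group. Promoter sequences were not used here.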

Additional observations from a re-analysis of the deposited data

Results flagged for a closer look

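The genes looked at were 72, those of the lists and those most similar to RSB1 and IPT1. Of these, 4 lay on one side of vector in Ssz1 S295F cells and on the other in Zuo1 fragment cells. This held in all 3 blocks, each set against the same-numbered vector block, and the difference was not tested. Across blocks, readings of AUR1 in Ssz1 S295F cells overlapped those of vector. Those of HXT11, ZUO1 and PDR1 did so in Zuo1 fragment cells. AUR1 had log2 ratios of -0.031 in Ssz1 S295F cells and 0.061 in Zuo1 fragment cells. HXT11, a listed target of Pdr1 and Pdr3 named here after its values were seen, was at 0.16 and -0.053, and how far its probes read its close relative HXT9 was not tested. ZUO1 was at 0.043 and -0.044, and PDR1 at 0.17 and -0.0755. After centring on the median of all genes, an alternative chosen after seeing the data, 0 of these 4 showed the pattern, and all 4 lay above 0 in both comparisons: AUR1 at 0.12 and 0.185, HXT11 at 0.31 and 0.07, ZUO1 at 0.19 and 0.08, and PDR1 at 0.32 and 0.05. Of the 72 genes, 2 (2.78%) had the pattern after centring, other genes than these 4. Over the whole array 163 of 5777 genes (2.82%) had the pattern as deposited and 257 (4.45%) after centring. Both comparisons use the same vector array.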

How the results depend on the processing

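Over 9 alternative scalings and block choices, RSB1 kept its side and stayed past 2-fold with both constructs (1.83 to 2.15 in Ssz1 S295F cells, 1.56 to 1.87 in Zuo1 fragment cells), and IPT1 ran from 0.61 to 0.85 and from 0.58 to 0.75. LCB1, LCB2, TSC10, LAC1 and CSG2 kept their sign against vector, though TSC10 came to -0.003 in Zuo1 fragment cells, and SUR2, LAG1 and AUR1 changed sign under some settings with at least 1 construct, except AUR1 in Zuo1 fragment cells. Between constructs SUR2 and CSG2 changed sign. Of the listed genes, SLM1 and TPO1 in Zuo1 fragment cells and TPO1, LAF1, PDR5 and SSZ1 (1.06 with centring) in Ssz1 S295F cells crossed 2-fold under some settings. Also chosen after seeing the data were counts by list: the 6 other targets of Pdr1 and Pdr3 past 2-fold in Ssz1 S295F cells became 8 with centring, 7 with the loess on level and 5 with that on coding length, and the 5 in Zuo1 fragment cells became 6 with centring and in block 1. Over all genes, those higher in Ssz1 S295F cells went from 290 to 394, 444 and 296 under the same settings in that order. In Zuo1 fragment cells they went from 210 to 252 with centring and 208 in block 1. Of the 8 regulators, 2 remained past 2-fold in Zuo1 fragment cells with the loess on coding length and with 64 added, beside 223 and 187 of all genes. The cause of the shifts was not tested. The promoter search was not run. No paired analysis was possible because each group has 1 array.

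In Ssz1 S295F cells, the median of the 10 genes moved to 0.16 with centring, 0.053 with the loess on level, 0.15 with the loess on coding length and 0.0013 in block 2. In Zuo1 fragment cells it moved to 0.18 with centring, 0.17 with the loess on coding length and 0.093 in block 3, and between constructs to 0.009 with centring and 0.062 in block 3. At 1.5-fold 2 of the 10 genes were higher with each construct, beside 10.2% of all genes in Ssz1 S295F cells and 7.60% in Zuo1 fragment cells. Under alternatives chosen after seeing the data, those of the 10 genes with separate blocks numbered 8 higher in Ssz1 S295F cells under centring and the loess on coding length, and 2 lower under these and the loess on level. In Zuo1 fragment cells 1 was lower under centring and the loess on coding length, and between constructs 4 were lower under the same settings. Shares of all genes with separate blocks under these settings are not given here. Other genes shift under these settings too, so nothing is read from these counts.

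Over all genes, those higher past 2-fold in Ssz1 S295F cells numbered 444 with the loess on level and 592 at 1.5-fold. Lower genes numbered 90 with centring, 82 with quantile normalization, 39 with the loess on level, 53 with the loess on coding length, 71 with 64 added, 755 at 1.5-fold and 35 without dim genes. In Zuo1 fragment cells 439 were higher at 1.5-fold, and lower genes numbered 31, 29, 15, 19, 20, 414 and 12 under the same settings. Between constructs 2 were higher with 64 added, 39 at 1.5-fold, 5 in every block and 1 without dim genes, and 14 were lower with centring, 21 with the loess on level, 14 with the loess on coding length, 15 in block 2, 2 with 64 added, 80 at 1.5-fold and 0 without dim genes.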
